A study of Mus musculus with 24 samples.

Results

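Regulatory T cells are the CD4+ T cells that restrain other lymphocytes, and they depend on the transcription factor Foxp3. They carry a high level of the interleukin 2 receptor alpha chain, through which they take up interleukin 2 and signal through Jak3 and Stat5, and they display the TNF receptors GITR and OX40. In many tumors they are known to hold back cytotoxic T cells. Their mRNA was followed here through 7 genes, which are 7 of the 55401 rows of a count table. The genes are Foxp3, Ikzf2 (the Ikaros family factor Helios), Ikzf4 (the Ikaros family factor Eos), Il2ra (CD25), Tnfrsf18 (GITR), Tnfrsf4 (OX40) and Izumo1r (folate receptor 4). They were chosen by name, as well-known genes of this cell type, and each symbol was matched to 1 Ensembl identifier in GENCODE M21. Several of them are not particular to regulatory T cells, since activated T cells also use Il2ra, Tnfrsf18 and Tnfrsf4.

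The tumors grew in male C57/BL6 mice of 8 to 10 weeks from TC2Ras, a mouse prostate adenocarcinoma line that carries activated H-Ras, and the methods name TC2Ras-Luc cells for the intratibial model. All mice received a plasmid by ultrasound-aided injection into muscle, either an empty vector (control) or a vector for interleukin 27 (IL-27). Subcutaneous (SC) tumors, 2 with control plasmid and 2 with IL-27, were taken 1 week after implantation. Intratibial tumors, which grow in the shin bone, also received daily cabozantinib (cabo), an inhibitor of receptor tyrosine kinases, or its vehicle PVP for 2 weeks. The 4 intratibial groups were thus control (empty vector and PVP), IL-27 (IL-27 vector and PVP), cabo (empty vector and cabozantinib) and IL-27+cabo. Each had 3 mice at day 14 and 2 mice at the end of the study (EOS), when mice had reached the ethical endpoint. Intratibial libraries carry a mouse number. Both flanks were injected in the SC model and no label says that the 4 SC tumors came from separate mice, so the spread between SC tumors may in part be that within a mouse. RNA came from tumor sections and thus from all cells in them, and a lower value can mean fewer cells of a type or less RNA in each, which cannot be told apart.

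Libraries held between 63729005 and 83782258 counts. The epithelial genes Krt8, Krt18, Epcam and Cdh1 were detected in all 24 tumors. The T cell genes split the day 14 tumors: the summed level of 14 genes of the T cell receptor complex lay between 109 and 112 CPM (counts relative to library size, scaled by the TMM method) in the 3 controls and was 111 CPM in IL-27 mouse 4, but lay between 17.8 and 40.5 CPM in the other 8. At EOS it lay between 7.28 and 21.0 CPM. IL-27 mouse 4 stood apart from IL-27 mice 6 and 8 in what follows.

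All 7 genes were at low levels. Per length of transcript, Tnfrsf4 had the highest median over the 20 intratibial tumors, 5.38 RPKM (the CPM level divided by exon length in kilobases), and Tnfrsf18 followed at 2.30 RPKM. The median level was 0.455 RPKM for Il2ra, 0.258 RPKM for Foxp3, 0.239 RPKM for Izumo1r, 0.184 RPKM for Ikzf4 and 0.0913 RPKM for Ikzf2. Foxp3 rested on 25 to 345 counts a tumor. On GRCm38 it lies at chrX:7573644-7595245 on the plus strand, and its exons share 590 bases with exons of Ccdc22 on the minus strand and 853 bases with those of the RNA Flicr. Ccdc22 had 2419 to 5085 counts in the intratibial tumors and Flicr 0 to 46. Foxp3 exons also share 373 bases with those of Gm36995 and 266 bases with those of Ppp1r3f. Gm36995 was at 17.8 and 22.9 CPM in the EOS controls and at 3.75 to 13.1 CPM in the other EOS tumors. Its part in the Foxp3 values was not tested. Exons of Tnfrsf18 share 414 bases with those of Gm16008. Whether the counting used strand is not given in the sources used here. Izumo1r (chr9:14885814-14903949, minus strand) and Tnfrsf4 (chr4:156013843-156016612, plus strand) overlap no other gene in the annotation.

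Stretches before RefSeq start sites of 3 of the genes are shown: Foxp3, as the defining factor, Il2ra, which rose in SC tumors, and Izumo1r, which fell under cabo. They are read 5′ to 3′ from RefSeq promoter windows on GRCm38.p6, which were found for 5 of the 7 genes, and hold no base that GENCODE M21 places in an exon of the gene. Capitals mark matches, on either strand, to the letters GGAAA (NFAT) or TTCNNNGAA (STAT), and TGTGGT (RUNX) and TGTTTAC (forkhead) were searched too. The first is chrX:7580233-7580482 (plus strand, before the later of the 2 Foxp3 starts in RefSeq and inside the gene as GENCODE M21 draws it, after its first exons), the second chr2:11642542-11642791 (plus strand) and the third chr9:14903950-14904017 (minus strand).
Foxp3: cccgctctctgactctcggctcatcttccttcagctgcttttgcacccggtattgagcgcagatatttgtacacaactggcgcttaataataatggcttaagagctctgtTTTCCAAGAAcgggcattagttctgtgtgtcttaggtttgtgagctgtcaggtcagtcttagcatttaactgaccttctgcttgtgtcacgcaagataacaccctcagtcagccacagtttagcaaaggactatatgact
Il2ra: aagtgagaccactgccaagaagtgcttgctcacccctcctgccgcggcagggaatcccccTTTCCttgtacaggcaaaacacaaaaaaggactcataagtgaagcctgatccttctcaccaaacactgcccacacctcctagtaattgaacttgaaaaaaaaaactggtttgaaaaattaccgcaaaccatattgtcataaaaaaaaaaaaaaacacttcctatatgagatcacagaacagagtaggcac
Izumo1r: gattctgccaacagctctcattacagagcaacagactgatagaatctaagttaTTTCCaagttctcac
In the Foxp3 stretch a match to the NFAT letters overlaps a match to the STAT letters, and the other 2 stretches hold 1 match to the NFAT letters each. The window before the other Foxp3 start, not shown, held 1 match to the NFAT letters and 0 to the STAT letters. The Izumo1r stretch is only 68 bases of its window of 250, and the part not shown held 1 match to the RUNX letters. Of all 32851 promoter windows of 250 bases, 55.6% held the NFAT letters, 7.0% the STAT letters, 14.0% the RUNX letters and 3.2% the forkhead letters, so that a match to the first is common. A match is a match of letters only.

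**Figure D1:**
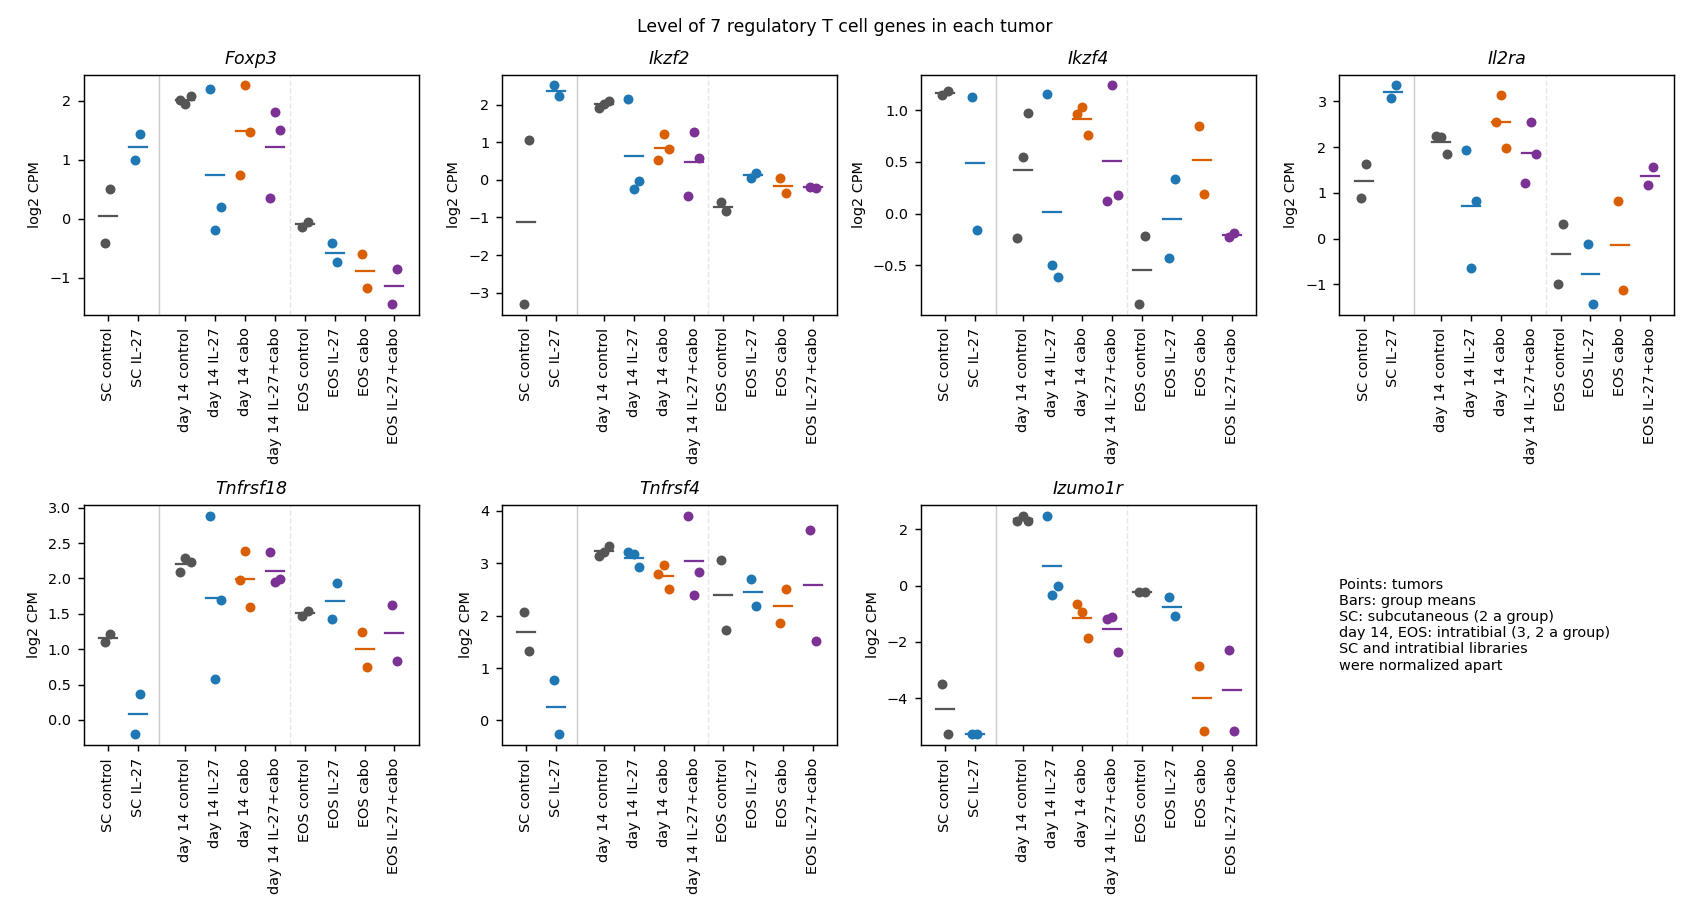
Log2 CPM of each of the 7 genes (vertical axis, with a prior count of 2) in each tumor (points) of the 10 groups, with group means as bars. In the day 14 controls Foxp3, Ikzf2 and Izumo1r lie close together, the 3 cabo tumors lie below all controls for Izumo1r and Ikzf2, and all EOS tumors lie below the day 14 controls for Foxp3.

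Foxp3 was highest at day 14 and low at EOS. It was at 4.00, 3.82 and 4.20 CPM in the 3 day 14 controls, at 4.57, 0.853 and 1.12 CPM with IL-27 (mice 4, 6 and 8), at 1.64, 4.75 and 2.75 CPM with cabo (mice 21, 25 and 27) and at 1.24, 3.47 and 2.81 CPM with IL-27+cabo (mice 20, 22 and 24). At EOS it was at 0.934 and 0.885 CPM in controls (mice 9 and 13), 0.726 and 0.571 CPM with IL-27 (mice 10 and 12), 0.631 and 0.418 CPM with cabo (mice 19 and 23) and 0.340 and 0.530 CPM with IL-27+cabo (mice 16 and 28). In the order of group means, the day 14 groups came as control, cabo, IL-27+cabo and IL-27, and at EOS control was followed by IL-27, then cabo, then IL-27+cabo. Neighbours in this order overlapped, except that both EOS controls lay above both EOS IL-27 tumors.

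Cabo and control at day 14 were compared first, which asks what the kinase inhibitor alone did to these genes. Izumo1r, which marks regulatory and anergic CD4+ T cells, was at 4.88, 5.55 and 4.83 CPM in the controls (358, 426 and 353 counts) and at 0.613, 0.495 and 0.246 CPM in the cabo tumors (43, 36 and 17 counts). The groups did not overlap. It fell 11.2-fold with cabo (log2 fold change -3.49 ± 0.34 SE, adjusted p = 0.00399 by edgeR's quasi-likelihood test with Benjamini-Hochberg adjustment over 18627 genes). It was the 1 member of 7 that passed, where 1.89% of all genes tested passed in either direction and 0.693% were lower with cabo, and 3 of 7 had an unadjusted p under 0.05, as did 18.9% of all genes. The call was kept when any 1 of the 6 tumors was left out (adjusted p from 0.0108 to 0.0278).

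Helios mRNA was also lower with cabo without passing the adjusted threshold. Ikzf2 was at 3.72, 4.01 and 4.27 CPM in controls and at 1.43, 2.31 and 1.74 CPM with cabo, again with no overlap (log2 fold change -1.13 ± 0.24 SE, unadjusted p = 0.00158, adjusted p = 0.0636 by edgeR). Correction for GC content and length put it at an adjusted p of 0.0416. Tnfrsf4, the OX40 receptor of activated and regulatory T cells, was at 8.81, 9.28 and 10.0 CPM in controls and 6.95, 7.79 and 5.64 CPM with cabo (log2 fold change -0.46 ± 0.16 SE, adjusted p = 0.190 by edgeR).

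The defining factor itself and CD25 did not follow Izumo1r. The cabo tumors lay on both sides of the controls for Foxp3, with 1 above and 2 below (log2 fold change -0.39 ± 0.36 SE, adjusted p = 0.604 by edgeR). Il2ra was at 4.69, 4.67 and 3.56 CPM in controls and 5.81, 8.74 and 3.91 CPM with cabo (log2 fold change 0.52 ± 0.30 SE, adjusted p = 0.390). Ikzf4 and Tnfrsf18 had log2 fold changes of 0.42 ± 0.34 SE and -0.18 ± 0.23 SE, with adjusted p of 0.549 and 0.722 by edgeR. The median log2 fold change of the 7 genes was -0.39, against -0.01 over all genes tested.

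T cell mRNA in general was lower in these cabo tumors. Of 14 genes of the T cell receptor complex, 10 fell and none rose at the adjusted threshold, Cd3e by 1.97 and Trac by 1.63 on the log2 scale, with Cd4 at a log2 fold change of -1.43 (adjusted p = 0.00399, 0.00314 and 0.0225 by edgeR). Among 11 tested genes of regulatory T cell effector function only Lag3, an inhibitory receptor that binds MHC class II, passed (-2.12, adjusted p = 0.0107). Among 27 tested genes of regulatory T cell identity and control none passed, with 7 at an unadjusted p under 0.05, and none of 7 ligands and interleukin 2 receptor partners passed, with 2 at that level. Ccl22, a chemokine that draws Ccr4+ regulatory T cells, rose (log2 fold change 1.31 ± 0.25 SE, adjusted p = 0.0453), as 1 of the 2 tested chemokines of that kind. Cd8a and Cd8b1 had log2 fold changes of 2.62 ± 0.63 SE and 2.02 ± 0.55 SE without an adjusted call (adjusted p = 0.0859 and 0.122).

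Muscle mRNA moved with cabo. The summed level of 12 skeletal muscle genes was 7.13 to 148 CPM in controls, where 2 of the 12 were at 0 in mouse 3, and 1194 to 1864 CPM in cabo tumors, and 5 of the 12 passed as higher. With the muscle score as a covariate the log2 fold change of Izumo1r was -3.62 and its adjusted p 0.310, and in a fit of all 4 day 14 groups it was -3.48 (adjusted p = 0.208). With IL-27 alone the same sum was 30.9, 70.9 and 2043 CPM, and none of the 12 genes passed, with 3 at an unadjusted p under 0.05.

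Other cell types moved in these cabo tumors too. Of 6 endothelial genes Emcn and Kdr fell (log2 fold changes -2.70 ± 0.24 SE and -1.56 ± 0.28 SE, adjusted p = 0.00314 and 0.0401 by edgeR), and of 7 dendritic cell genes Ccr7, a chemokine receptor that T cells also use, rose (1.26 ± 0.21 SE, adjusted p = 0.0329). Their part in the values of the 7 genes was not tested.

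**Figure D2:**
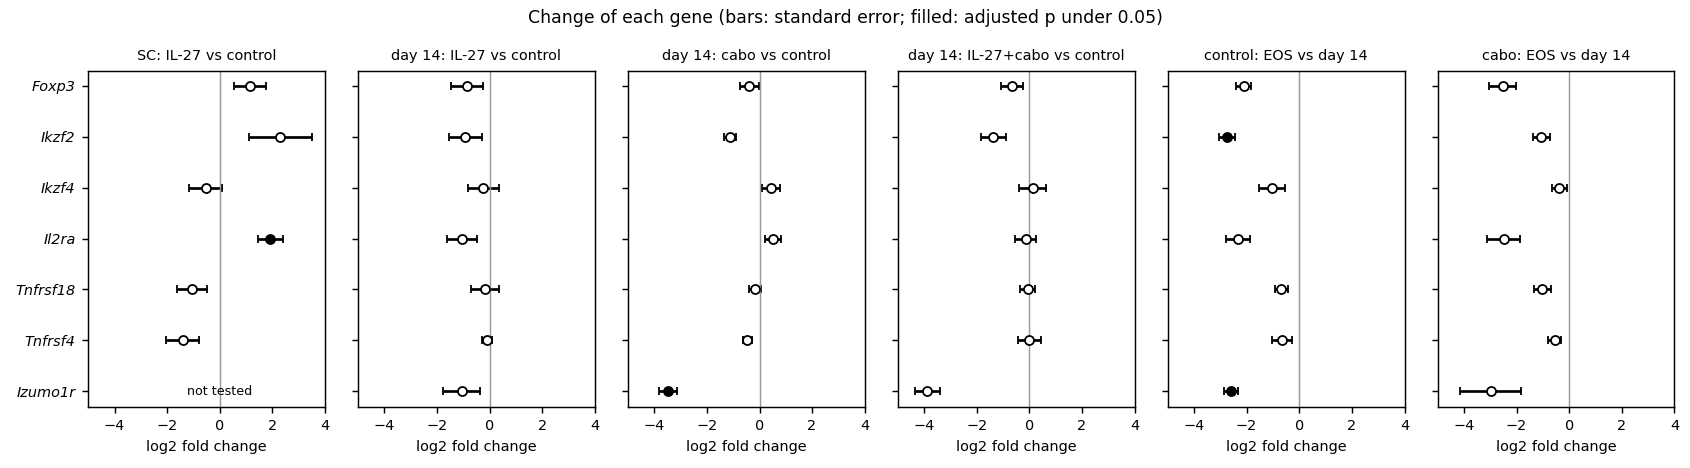
Log2 fold change of each gene (horizontal axis) in 6 comparisons, with standard errors as bars and filled points for an adjusted p under 0.05 by edgeR. Filled points are Il2ra in SC tumors, Izumo1r under cabo, and Ikzf2 and Izumo1r in controls from day 14 to EOS.

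With IL-27+cabo at day 14 the same controls were used, so that this comparison and the one above are not independent. Izumo1r was at 0.415, 0.429 and 0.169 CPM (22, 32 and 12 counts), below all controls (log2 fold change -3.88 ± 0.47 SE, adjusted p = 0.0623 by edgeR). None of the 7 genes passed, with 2 at an unadjusted p under 0.05, where 0.0640% of all genes tested passed and 6.20% were under that unadjusted p. DESeq2 called 1, Izumo1r. Without mouse 20, whose Izumo1r level lay between those of the other 2 tumors, Izumo1r passed (log2 fold change -4.08, adjusted p = 0.0175). Mouse 20 had the lowest Foxp3, Il2ra and Ikzf2 of its group and the highest Tnfrsf4 of all tumors (15.0 CPM). Its library also had the lowest depth (63729005 counts) and the fewest genes detected (21269) of all libraries. The lowest correlation between tumors of a group was in this group too (r = 0.959). The part of library quality in these values was not tested. Ikzf2 was at 0.717, 2.38 and 1.48 CPM, below all controls (log2 fold change -1.37 ± 0.47 SE, adjusted p = 0.603), and Foxp3 had a log2 fold change of -0.66 ± 0.42 SE (adjusted p = 0.807). The other 4 members lay between -0.13 (Il2ra) and 0.12 (Ikzf4). The summed muscle level here was 1592 to 4489 CPM, and with the muscle score as a covariate Izumo1r was at -4.70 (adjusted p = 1).

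IL-27+cabo was set against cabo alone, and against IL-27 alone, to see what each agent added to the other. Against cabo, Foxp3 had a log2 fold change of -0.27 ± 0.53 SE and Il2ra of -0.65 ± 0.45 SE, and 0 of 7 genes passed (0 at an unadjusted p under 0.05, 0 by DESeq2), where 0.00% of all genes tested passed and 1.92% had an unadjusted p under 0.05. Against IL-27, Izumo1r was below all 3 IL-27 tumors (5.49, 0.774 and 0.957 CPM) with a log2 fold change of -2.84 ± 0.91 SE (adjusted p = 0.916 by edgeR), which was -1.36 without mouse 4 (adjusted p = 1.00), and again 0 of 7 genes and 0.00% of all genes passed, also 0 of 7 by DESeq2. It was the 1 member with an unadjusted p under 0.05, against 4.85% of all genes.

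Averaged over both plasmids, the cabo effect at day 14 was a fall of Izumo1r (log2 fold change -3.17 ± 0.52 SE, adjusted p = 0.0152 by edgeR), the 1 member of 7 that passed, where 1.03% of all genes tested passed and 0.488% were lower, and also the 1 member with an unadjusted p under 0.05, against 12.7% of all genes. Foxp3 was at -0.11 ± 0.43 SE and Il2ra at 0.71 ± 0.39 SE, with adjusted p of 0.947 and 0.502. The Izumo1r call was lost without cabo mouse 25 (-3.16, adjusted p = 0.0506) and kept without IL-27 mouse 4 (-2.61, adjusted p = 0.0405), when Foxp3 was at 0.33. It was also lost with the muscle score as a covariate (-2.13, adjusted p = 1.00).

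IL-27 alone at day 14 gave a group divided in 6 of the 7 genes. Mouse 4 had 4.57 CPM of Foxp3, 4.43 of Ikzf2, 3.79 of Il2ra, 7.36 of Tnfrsf18 and 5.49 of Izumo1r, while mice 6 and 8 had 0.853 and 1.12 of Foxp3, 0.821 and 0.957 of Ikzf2, 0.616 and 1.74 of Il2ra, 1.47 and 3.21 of Tnfrsf18 and 0.774 and 0.957 of Izumo1r. Mouse 4 thus lay above the control range for Foxp3, Ikzf2 and Tnfrsf18 and within it for Il2ra and Izumo1r, and mice 6 and 8 lay below it for all 5. Ikzf4 was likewise at 2.19 CPM in mouse 4 and at 0.679 and 0.624 CPM in mice 6 and 8, against 0.818 to 1.93 CPM in controls. Tnfrsf4 was not divided in this way, since mice 4 and 6 lay within the control range of 8.81 to 10.0 CPM and mouse 8 below it at 7.57 CPM. Foxp3 had a log2 fold change of -0.86 ± 0.60 SE against control, Il2ra of -1.05 ± 0.57 SE and Izumo1r of -1.06 ± 0.70 SE, each with an adjusted p of 1.00 by edgeR. None of the 7 genes passed by edgeR or by DESeq2 and none had an unadjusted p under 0.05, where 0.00% of all genes tested passed and 2.76% had such an unadjusted p. Without mouse 4 the log2 fold changes were -2.01 for Foxp3, -2.16 for Ikzf2, -1.86 for Il2ra and -2.55 for Izumo1r (adjusted p = 0.171, 0.139, 0.636 and 0.0851), and still 0 of 7 passed.

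The effect of IL-27 averaged over vehicle and cabo (0 of 7 genes, 0.00% of all genes) and the interaction of IL-27 and cabo (0 of 7, 0.00%) gave no call among the 7 genes by edgeR or by DESeq2. In the first only Il2ra of the members had an unadjusted p under 0.05 (log2 fold change -0.86 ± 0.39 SE, adjusted p = 0.720 by edgeR), and no member had one in the second, where Foxp3 was at 0.57 ± 0.88 SE. Without IL-27 mouse 4 these were -1.18 for Il2ra (adjusted p = 0.548) and 1.73 for Foxp3 (adjusted p = 1.00). Over all genes 3.47% and 1.88% had such an unadjusted p.

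Since T cell mRNA was lower in many of these tumors, Foxp3 was also expressed relative to the CD3 chains, as its log2 CPM minus the mean log2 CPM of Cd3d, Cd3e and Cd3g. In counts, the 3 controls had 293, 293 and 307 of Foxp3 with 783, 837 and 732 of Cd3e, whereas cabo mice 25 and 27 had 345 and 190 of Foxp3 with 207 and 216 of Cd3e, and IL-27+cabo mice 22 and 24 had 259 and 199 with 128 and 111. The log2 difference was -0.76, -0.97 and -0.68 in controls, -0.55, -0.31 and -0.19 with IL-27, -0.36, 1.58 and 1.13 with cabo and -0.69, 1.78 and 1.40 with IL-27+cabo. Cabo mice 25 and 27 and IL-27+cabo mice 22 and 24 lay above all tumors without cabo, and mice 21 and 20 lay within their range.

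Foxp3 relative to CD3 was higher with cabo by 1.38 on the log2 scale (mean 0.81 ± 1.06 SD against -0.58 ± 0.29 SD, n = 6 and 6). Most of this difference lay in the CD3 chains: in the fit across plasmids Cd3d, Cd3e and Cd3g had log2 fold changes of -1.30, -1.64 and -1.76 with cabo, without an adjusted call, and Foxp3 one of -0.11. The measure was chosen with the lower T cell mRNA known, so it is not a result apart from it. An exact two-sided permutation test within plasmids gave p = 0.035 (400 arrangements, smallest possible 0.005), which was 0.07 after Benjamini-Hochberg adjustment over the 2 such tests made. The unadjusted p was no longer under 0.05 without IL-27+cabo mouse 22 or 24, IL-27 mouse 4 or 6, or control mouse 5 (exact permutation p from 0.05 to 0.06). For IL-27 the difference was 0.25 (exact permutation p = 0.48). Relative to Cd4 in place of CD3 the cabo difference was 0.83 (exact permutation p = 0.01, an alternative setting outside that adjustment). Cd4 was itself lower with cabo than in controls (log2 fold change -1.43), so this too is not a result apart from the lower T cell mRNA.

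Relative to CD3, Izumo1r was the 1 of the 7 genes whose mean was lower with cabo and with IL-27+cabo than in controls, and the means of the other 6 were higher. Il2ra minus CD3 was -0.53, -0.68 and -0.92 in controls, -0.82, -0.76 and 0.44 with IL-27, 1.45, 2.46 and 1.63 with cabo and 0.17, 2.52 and 1.74 with IL-27+cabo, so that IL-27 mouse 8 lay above IL-27+cabo mouse 20. Izumo1r minus CD3 was at -0.47, -0.44 and -0.48 in controls, -0.45 to -0.29 with IL-27, -2.21 to -1.60 with cabo and -2.44 to -1.16 with IL-27+cabo. All 6 tumors with cabo were below all 6 without it in this measure. It shares the Izumo1r counts with the comparisons above, so it carries no test of its own. Ikzf2 minus CD3 was between -0.90 and -0.36 in the 6 tumors without cabo and between -1.47 and 1.24 in the 6 with it. The means in controls, IL-27, cabo and IL-27+cabo tumors were -0.61, 0.63, 1.28 and 1.72 for Tnfrsf18, 0.42, 2.02, 2.05 and 2.65 for Tnfrsf4 and -2.39, -1.08, 0.21 and 0.12 for Ikzf4. All of these share the CD3 values.

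**Figure D3:**
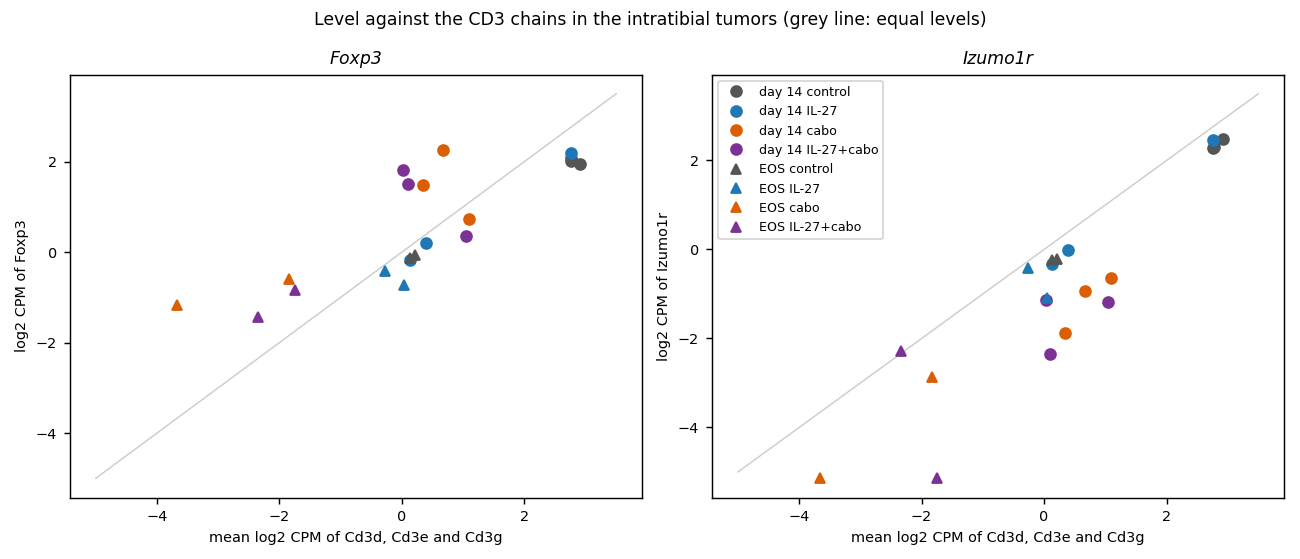
Log2 CPM of Foxp3 (left) and Izumo1r (right) against the mean log2 CPM of Cd3d, Cd3e and Cd3g in each of the 20 intratibial tumors, with circles for day 14 and triangles for EOS. For Foxp3 all 10 tumors without cabo lie below the grey line of equal levels, while 4 of 6 day 14 tumors and all 4 EOS tumors with cabo lie above it. For Izumo1r all 6 day 14 tumors with cabo lie further below the line than the 6 without.

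The tumors fell into clusters by CD3 level, with a mean log2 CPM of 2.75 to 2.92 in the day 14 controls and IL-27 mouse 4 and of 0.03 to 1.10 in the other 8 day 14 tumors, so no correlation over all tumors is given with its p. As a description, the 10 genes whose level ranked most like that of Foxp3 over the 20 intratibial tumors, among 21562 genes, were Icos, Gimap7, Trac, Cd2, Gimap3, Cxcr3, Cd6, Slamf6, Pdcd1 and Cd247, with Spearman's rho from 0.947 for Icos to 0.869 for Cd247. All tumors share depth and the time difference in this measure. Of the other members, Tnfrsf18 ranked 41 (rho 0.809), Il2ra 76 (0.762), Ikzf2 89 (0.747), Izumo1r 364 (0.578), Ikzf4 598 (0.510) and Tnfrsf4 1577 (0.374).

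Controls at EOS and at day 14 were compared to see how tumors without an active agent changed as they progressed, and Ikzf2 and Izumo1r fell. Ikzf2 was at 0.532 and 0.640 CPM in the EOS controls, below all day 14 controls (log2 fold change -2.75 ± 0.31 SE, adjusted p = 0.0455 by edgeR). Izumo1r was at 0.834 and 0.817 CPM, again below all of them (log2 fold change -2.60 ± 0.28 SE, adjusted p = 0.0374). These were the 2 of 7 genes that passed, both lower, where 0.104% of all genes tested passed, and all of those were lower. At an unadjusted p under 0.05 there were 5 of 7, against 13.1% of all genes. Neither call held when any 1 of the 5 tumors was left out (adjusted p from 0.110 to 0.328), while the log2 fold changes stayed between -2.90 and -2.54.

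The other 5 members had log2 fold changes below 0 without an adjusted call. Foxp3 had a log2 fold change of -2.12 ± 0.28 SE (unadjusted p = 0.000132, adjusted p = 0.0643 by edgeR) and Il2ra, at 1.22 and 0.476 CPM in the EOS controls, of -2.33 ± 0.45 SE (adjusted p = 0.145). Tnfrsf18 was at -0.69 ± 0.24 SE (adjusted p = 0.312), Tnfrsf4 at -0.67 ± 0.38 SE (adjusted p = 0.494) and Ikzf4, whose groups overlapped, at -1.02 ± 0.50 SE (adjusted p = 0.429). The median log2 fold change of the 7 genes was -2.12, against -0.00 over all genes tested. Of the 14 genes of the T cell receptor complex 7 fell and none rose, with a median of -2.56, and 2 of the 3 CD3 chains were among them. Pdcd1, the inhibitory receptor PD-1, was the 1 of 11 tested effector genes that passed (log2 fold change -2.52 ± 0.24 SE, adjusted p = 0.0256), and none of 27 identity genes did, with 14 at an unadjusted p under 0.05. Foxp3 minus CD3 was -0.26 and -0.27 in the 2 EOS controls.

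In the other treatment groups the same step gave no adjusted call among the 7 genes by edgeR. With cabo, Foxp3 had a log2 fold change of -2.53 ± 0.52 SE from day 14 to EOS (adjusted p = 0.0672 by edgeR), Il2ra of -2.49 ± 0.62 SE (adjusted p = 0.113), or -3.83 without EOS mouse 19 (adjusted p = 0.0407) and -1.82 without EOS mouse 23 (adjusted p = 0.244), and Tnfrsf18 of -1.01 ± 0.31 SE (adjusted p = 0.166), and all 3 genes lay lower in both EOS tumors than in all day 14 tumors. None of the 7 passed, with 5 at an unadjusted p under 0.05, where 2.09% of all genes tested passed and 17.6% were under that unadjusted p. DESeq2 called 3, which were Foxp3, Il2ra and Tnfrsf18, and its own share over all genes is not given. Of the 14 genes of the T cell receptor complex 3 fell in the same step, Cd3e, Cd247 and Trac, with log2 fold changes of -3.32, -2.58 and -2.38 (adjusted p = 0.0191, 0.0168 and 0.0492 by edgeR). Of 6 endothelial genes 4 rose, among them Emcn and Kdr by 3.31 and 1.45 on the log2 scale (adjusted p = 0.00189 and 0.0499 by edgeR), and of 7 macrophage genes Mrc1 fell, by 0.88 (adjusted p = 0.00998). The part of these genes in the values of the members was not tested. Ccl22, the regulatory T cell chemokine that rose with cabo at day 14, fell in this step (log2 fold change -2.41 ± 0.37 SE, adjusted p = 0.0312), and Lrrc32, the surface anchor of latent TGF-β on regulatory T cells, which endothelium also uses, rose by 0.71 ± 0.12 SE (adjusted p = 0.0432), while 4 of 6 endothelial genes rose. The part of endothelium in the Lrrc32 value was not tested. With IL-27 the Foxp3 log2 fold change was -1.72 ± 0.80 SE (0 of 7 genes passed, 0.00% of all genes, 0 of 7 by DESeq2), with 0 of 7 at an unadjusted p under 0.05, against 5.05% of all genes. Without mouse 4 it was -0.56 (adjusted p = 0.571 by edgeR). With IL-27+cabo the Foxp3 log2 fold change was -2.53 ± 0.65 SE (0 of 7 genes passed, 0.00% of all genes), with Foxp3 the 1 of 7 at an unadjusted p under 0.05, against 3.83% of all genes, and DESeq2 called 1, also Foxp3.

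**Figure D4:**
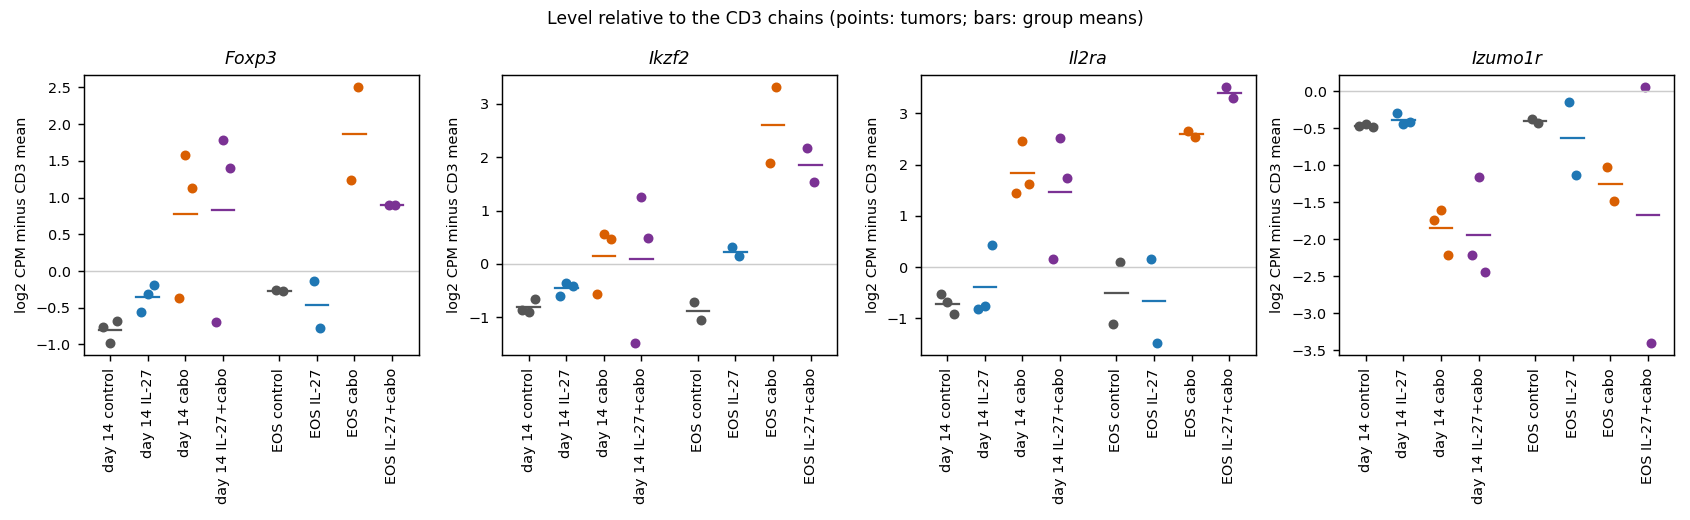
Log2 CPM minus the mean log2 CPM of the 3 CD3 chains for Foxp3, Ikzf2, Il2ra and Izumo1r (vertical axes) in each intratibial tumor (points) of the 8 groups, with group means as bars. For Foxp3 the 4 EOS tumors once given cabo lie between 0.90 and 2.50, above the 4 others at EOS.

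At EOS, after cabo dosing had ended, each treated group was compared with the same 2 EOS controls in 1 fit, so that the 3 comparisons are not independent. Foxp3 was lower than in both controls in all 6 treated tumors, with log2 fold changes of -0.49 ± 0.47 SE for IL-27, -0.81 ± 0.47 SE for cabo and -1.07 ± 0.47 SE for IL-27+cabo (adjusted p = 1, 0.663 and 0.365 by edgeR). The share of all genes separated from the controls in this way was not computed. Il2ra in the IL-27+cabo tumors, at 2.21 and 2.91 CPM, lay above both controls (log2 fold change 1.59 ± 0.77 SE, adjusted p = 0.401, and 1.06 without control mouse 13 and 2.41 without control mouse 9). Izumo1r had 8 and 0 counts with cabo and 13 and 0 with IL-27+cabo, against 58 and 60 in controls. In each of the 3 comparisons 0 of 7 genes passed by edgeR and by DESeq2, and 0.00% of all genes tested passed. At an unadjusted p under 0.05 there were 0 of the 7 with IL-27, 1 with cabo (Izumo1r, log2 fold change -3.87 ± 1.55 SE, adjusted p = 0.535 by edgeR, and -2.91 without mouse 23, which had 0 counts) and 0 with IL-27+cabo, against 3.25%, 8.90% and 14.2% of all genes. Without cabo mouse 19 the other cabo tumor is at 0 counts of Izumo1r, so that its fitted fold is no measure of size.

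Muscle and T cell genes also differed between the EOS groups, without an adjusted call. The summed muscle level was 7.40 and 14.1 CPM in controls, 9.79 to 17.9 CPM with IL-27, 120 to 943 CPM with cabo and 108 to 229 CPM with IL-27+cabo. Cd3e had a log2 fold change of -2.79 ± 0.80 SE with cabo and -2.52 ± 0.79 SE with IL-27+cabo (adjusted p = 0.472 and 0.248 by edgeR). Their part in the Foxp3 and Izumo1r values was not tested.

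Whether a treatment effect changed between the times was tested over all intratibial tumors. Ikzf2, lower than in controls with cabo and IL-27+cabo at day 14, was higher than in both controls in all 6 treated EOS tumors (0.750 to 1.11 CPM against 0.532 and 0.640 CPM), and the change in its effect was 1.67 ± 0.87 SE for cabo, 1.90 ± 0.87 SE for IL-27+cabo and 1.80 ± 0.86 SE for IL-27 on the log2 scale (adjusted p = 1.00, 0.539 and 1.00 by edgeR). The last was 3.03 without IL-27 mouse 4 (adjusted p = 0.529). None of the 7 genes passed in any of the 3, also by DESeq2, where 0.0788%, 0.0788% and 0.00% of all genes passed. At an unadjusted p under 0.05 there were 0, 1 and 0 of the 7, against 4.11%, 9.14% and 1.93% of all genes.

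Relative to CD3, Foxp3 in the 4 EOS tumors once given cabo was between 0.90 and 2.50, above the 4 others, which lay between -0.78 and -0.14. The difference was 1.75 on the log2 scale, and the exact two-sided permutation test within plasmids gave p = 0.0556, the smallest that its 36 arrangements allow. This test was added after the values were seen, and Cd3d, Cd3e and Cd3g had only 0 to 42 counts each in those 4 tumors, so that the difference rests on few counts.

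SC tumors with IL-27 were compared with SC controls, which asks what the cytokine did early in tumors outside bone. Il2ra was at 1.84 and 3.08 CPM in controls and 8.35 and 10.2 CPM with IL-27, with no overlap. It rose 3.81-fold (log2 fold change 1.93 ± 0.49 SE, adjusted p = 0.0335 by edgeR), the 1 of 6 tested genes that passed, where 20% of all genes tested passed and 3.52% were higher. It was also the 1 gene of the 6 with an unadjusted p under 0.05, against 35.4% of all genes. In either direction the share of members called was thus no higher than that of all genes. Ikzf2 was at 0.0754 and 2.05 CPM (6 and 150 counts) in controls and 5.68 and 4.66 CPM with IL-27 (log2 fold change 2.30 ± 1.20 SE, adjusted p = 0.218), and Foxp3 at 0.729 and 1.40 CPM against 1.97 and 2.67 CPM (log2 fold change 1.14 ± 0.61 SE, adjusted p = 0.228).

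The TNF receptors and Ikzf4 were lower in both SC tumors with IL-27 than in both controls, without an adjusted call. With so few tumors an exact permutation test cannot give a p below 0.333 for such a separation. The share of all genes separated in this way was not computed. Tnfrsf18 was at 2.11 and 2.30 CPM in controls and 0.843 and 1.27 CPM with IL-27 (log2 fold change -1.05 ± 0.57 SE, adjusted p = 0.236 by edgeR), and Tnfrsf4 at 4.16 and 2.48 CPM against 1.69 and 0.805 CPM (log2 fold change -1.40 ± 0.62 SE, adjusted p = 0.159). Leaving out 1 tumor put the Tnfrsf4 log2 fold change between -2.04 and -0.97. Ikzf4 was at 2.19 and 2.25 CPM against 2.16 and 0.869 CPM (log2 fold change -0.53 ± 0.63 SE, adjusted p = 0.590). Izumo1r had 5 counts in 1 control and 0 in the other 3 tumors and was not tested. Correction for GC content and length took away the Il2ra call (log2 fold change 1.09, adjusted p = 0.153), put Foxp3 past the threshold (3.24, adjusted p = 0.0222) and turned Tnfrsf18 to 0.77. The Il2ra call was also lost without the first control (1.61, adjusted p = 0.119) or the second IL-27 tumor (1.77, adjusted p = 0.0743), and the count of called genes was 2 without the second control, when Ikzf2 passed (6.04, adjusted p = 0.0106). Ccdc22, which shares exon bases with Foxp3, was at 52.9 and 35.0 CPM in SC controls and 7.62 and 3.73 CPM with IL-27.

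Genes that work with the 7 moved in both directions in the SC tumors. Tnfsf18, the ligand of GITR, rose from 0.0754 and 1.04 CPM to 6.43 and 8.93 CPM (log2 fold change 3.80 ± 1.08 SE, adjusted p = 0.0499 by edgeR). Jak3, Stat5b and Stat5a, which carry the interleukin 2 signal, fell by 3.05, 1.94 and 1.45 on the log2 scale (adjusted p = 0.0209, 0.00934 and 0.0377). Altogether 4 of 7 tested ligands and partners passed, 1 higher and 3 lower, where 20% of all genes tested passed. The alternative fits, among them the correction for GC content and length, were read for the 7 members alone. The calls of other genes in SC tumors were not checked against them. Il2 itself had 0 counts in all 24 tumors, which at 3 counts a library allows up to 0.0358 to 0.0471 CPM by library. These limits were taken from total counts without TMM scaling, unlike the other CPM values given here.

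Among 27 tested genes of regulatory T cell identity and control, 3 rose and 2 fell with IL-27 in SC tumors, a share no higher than the 20% of all genes that passed. Ctla4 and Icos, receptors that regulatory and activated T cells share, rose by log2 fold changes of 3.94 ± 0.65 SE and 3.26 ± 0.57 SE (adjusted p = 0.00679 and 0.00858 by edgeR). Capg and Lrrc32 fell, by 3.48 and 2.12 on the log2 scale. Of 11 tested effector genes, Fgl2 and Nt5e (CD73) rose and Tgfb1 and Lgals1 fell. Of the Ikaros family relatives Ikzf1 rose (1.81 ± 0.41 SE, adjusted p = 0.0227). The median log2 fold change was 0.84 over the identity list and 0.85 over the effector list, against 0.04 over all genes tested.

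Genes of other cell types were among the 20% of all genes that passed with IL-27 in these tumors, and the share called was near that for the T cell receptor, B cell and NK cell lists. Of 14 genes of the T cell receptor complex 3 rose, and Cd8a rose by 4.19 on the log2 scale (adjusted p = 0.0113 by edgeR). Skeletal muscle genes rose in 11 of 12 cases, from a summed level of 3.46 and 15.0 CPM, with 3 and 1 of the 12 at 0, to 402 and 1125 CPM. Of 6 tested marrow granulocyte genes 5 rose, and of 7 macrophage genes 4 fell. The B cell gene Ms4a1, the NK cell gene Gzma and Il1rl1 of the group 2 innate lymphoid list rose, by 4.18, 3.76 and 1.78 on the log2 scale (adjusted p = 0.0137, 0.0132 and 0.0219 by edgeR), each the 1 called gene of 6, 6 and 3 tested. Of 7 dendritic cell genes Cd209a rose by 2.77 and Flt3 fell by 1.93 (adjusted p = 0.00678 and 0.0169). Of 4 tested chemokines that attract regulatory T cells Ccl8 rose, by 3.99 (adjusted p = 0.0110). Of the 4 tumor epithelium genes Krt8 fell, by 3.81 on the log2 scale. The part of these in the values of the regulatory T cell genes was not tested.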

How the data were processed

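Poly(A) RNA of 24 tumors was sequenced in pairs from stranded libraries. Per the submitters' processing notes and the methods, reads were checked with FastQC and mapped with HISAT2, and StringTie and DESeq2 are also named. The authors deposited whole-number counts per gene without normalization. The counting program, mouse genome build and annotation are not given in the sources used here. In each library 30.4% to 35.5% of counts from 1 to 20 were multiples of 4, so dividing by 4 was tried.

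The counts then went into edgeR 4.0.16 under R 4.3.3 (filterByExpr with a minimum count of 10, TMM, quasi-likelihood F test, two-sided p-values with Benjamini-Hochberg adjustment over all tested genes, threshold 0.05). SC and intratibial libraries were normalized apart. Each fit held the compared groups alone, apart from the interaction and averaged effects (all day 14 groups), the EOS groups (1 fit) and changes between times (all intratibial tumors). Log2 CPM used a prior count of 2. RPKM used GENCODE M21 exon lengths, and 55141 of 55401 identifiers matched. Alternatives were DESeq2 1.42.0, RLE factors, no filter, leaving out each tumor, counts divided by 4, correction for GC content and length (splines with 5 degrees of freedom), a muscle score covariate, 1 fit of all day 14 groups and the replicate number as a block. The steps were tested on simulated data.

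The members, gene lists and tests were chosen with earlier results of these data known. The rule was to name the 7 members, listed genes past the threshold (at most 6 per list and comparison), the ligands and partners and the 10 genes ranked most like Foxp3. Members without a call and listed genes are in part given by counts or ranges only. A listed gene that passed in SC tumors is not reported here. P-values measure the spread between these tumors. Shares of all genes that passed are those of the main edgeR fits. The share of all genes whose groups did not overlap was not computed for any comparison. Intervals are not given, and depth limits low genes such as Izumo1r at EOS.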

Additional observations from a re-analysis of the deposited data

Results flagged for a closer look

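Ikzf2 was on opposite sides of the controls at the 2 times under cabo. All 3 cabo tumors lay below all controls at day 14, and both cabo tumors, at 1.00 and 0.750 CPM, lay above both controls, at 0.532 and 0.640 CPM, at EOS. The test of the difference between the changes gave a log2 value of 1.67 ± 0.87 SE (unadjusted p = 0.0713, adjusted p = 1.00 by edgeR's quasi-likelihood test, 0.984 to 1.00 under the other settings and 0.656 to 1.00 when 1 tumor was left out).

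Ikzf2 did the same under IL-27+cabo, at 0.856 and 0.834 CPM at EOS. The difference was 1.90 ± 0.87 SE (unadjusted p = 0.0437, adjusted p = 0.539 by edgeR, 0.335 to 0.724 under the other settings and 0.231 to 0.744 when 1 tumor was left out). Both differences use the same controls, and the EOS controls had the lowest mean Ikzf2 of all intratibial groups. Neither passed the adjusted threshold, and the share of all genes that changed sides in this way was not computed.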

How the results depend on the processing

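Counts of called genes among the members moved with the setting. With DESeq2 there were 2 in SC tumors, 2 for cabo at day 14, 1 for IL-27+cabo at day 14, 4 from day 14 to EOS in controls, 3 in the cabo groups and 1 in the IL-27+cabo groups, against 1, 1, 0, 2, 0 and 0 with edgeR. Correction for GC content and length gave 2 for cabo and 1 for IL-27+cabo at day 14 and 1 from day 14 to EOS with cabo. Without a filter on low counts there were 0 in SC tumors and 0 from day 14 to EOS in controls. The muscle score as a covariate left 0 for cabo at day 14 and 0 for cabo over both plasmids, and 1 fit of all 4 day 14 groups left 0 for cabo. The causes were not tested. The shares of all genes called under these other settings are not given, so the counts cannot be set against them.

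Leaving out 1 tumor gave 0 to 2 called genes in SC tumors, 0 to 1 for IL-27+cabo at day 14, 0 to 1 for cabo over both plasmids, 0 from day 14 to EOS in controls and 0 to 1 with cabo. Foxp3 relative to CD3 differed by 1.15 to 1.77 with cabo and by -0.036 to 0.63 with IL-27. The Foxp3 log2 fold change ran from -0.57 to 0.20 for IL-27+cabo against cabo and from -0.31 to 0.33 for cabo over both plasmids, where the muscle covariate turned it to 0.91. Tnfrsf18 in SC tumors turned to 0.77 with correction for GC content and length.

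In SC tumors the replicate number as a block gave 2 called genes, Il2ra and Ikzf2, and the block together with a GC and length correction put Tnfrsf18 at 0.78. The numbers pair no samples by the labels, and deviations of same-numbered tumors correlated by 0.0313 over 2 pairs. Intratibial mouse numbers are not shared between groups. Depth limits Izumo1r at EOS and the CD3 chains in EOS tumors with cabo, which rest on few counts.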
